A study of Rattus norvegicus with 60 samples.

Results

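The 9 genes described here are read as signs of cell division or of new neurons, and were followed in the brains of rats given a mood stabilizer. They are Mki67, Top2a, Cdk1, Ccnb1, Ccnd1, Ccnd2, Pcna, Dcx and Sox11. The members were all probe sets that the annotation of the array gives to exactly 1 of these symbols, which were 14 of the 31042 probe sets tested, for 9 of the 14217 genes with a probe set of their own. The rule itself used the symbols and no measured value, although the genes were proposed with earlier results of these data known. SD rats received 0.2% LiCl in their food, were injected under the skin each day with lamotrigine at 30 mg/kg, were injected with the vehicle of lamotrigine, or received plain chow. After 21 days the hippocampus, the cortex and the striatum were dissected and measured on 60 Affymetrix arrays, 5 in each of 12 groups. The groups are called LiCl, lamotrigine, injection vehicle and chow vehicle. A field of the labels names mouse tissue and another names constant delivery, whereas the organism field, the array and the series design name rats injected daily, and the second reading was followed. Sex and age are not given in the sources used here. The numbers in the sample descriptions, read as animals, give 24 rats for the 60 arrays. LiCl and lamotrigine were given by different routes and each had its own vehicle, so the chow arm (LiCl and chow vehicle) and the injection arm (lamotrigine and injection vehicle) differ in handling, and anything else that differed between the arms cannot be told apart from it.

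Mki67 codes for a nuclear protein present in dividing cells and absent from resting ones. Top2a untangles DNA before mitosis, Cdk1 with its partner cyclin Ccnb1 drives entry into mitosis, the D cyclins Ccnd1 and Ccnd2 act earlier with Cdk4 and Cdk6 to let a cell leave its resting state, and Pcna is the sliding clamp of the DNA polymerases. Dcx is a microtubule protein of migrating and immature neurons, and Sox11 is a transcription factor of immature neurons. In the adult rodent brain new neurons arise in the dentate gyrus of the hippocampus and in the wall of the lateral ventricle beside the striatum, whereas oligodendrocyte precursors divide throughout the tissue. Cells of these kinds are a small part of a dissected region. In bulk tissue, fewer cells of a type and less RNA per cell cannot be told apart.

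Levels below are log2 intensities, and differences are log2 differences with the SE of the limma fit. A probe set was called at a Benjamini-Hochberg adjusted p under 0.05 over all 31042 probe sets. A log2 intensity also depends on the probes, so levels were compared between samples only within a probe set, and the rank of a probe set among all is given only to show how bright it was. Of the 14 probe sets, 7 had a mean under 6 over the 60 arrays, a range in which a large part of the signal may be background. These were the probe sets of Mki67, Cdk1 and Sox11, both of Top2a, 1370345_at of Ccnb1 and 1387601_at of Dcx. Mki67 averaged 4.08, above 11.7% of all probe sets, and the dimmer Dcx probe set averaged 3.76, above 6.2%. Pcna, at 10.09, lay above 92.9% and Ccnd2, at 9.19, above 85.6%. Where a gene has several probe sets, the brightest over all arrays is used unless another is named: 1388650_at for Top2a, 1370346_at for Ccnb1, 1371643_at for Ccnd1 and 1374966_at for Dcx.

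Striatum and cortex carried their own markers. Called higher in the striatum than in the cortex were 9 of 9 striatal neuron genes, and 8 of 9 cortical neuron genes were called lower, against 12.3% of all probe sets called. The hippocampus was marked less fully, with 4 of 9 dentate granule genes called higher than in the cortex, against 6.49% of all probe sets called. Some arrays stood apart from their group. Choroid plexus genes averaged over 7 on 12 of the 60 arrays, and on LiCl replicates 1 and 2, lamotrigine replicates 3 and 5 and injection vehicle replicate 2 of the striatum they averaged 8.99 to 9.35. Cortex arrays of LiCl rats had a narrower spread of values than those of chow vehicle rats, with an interquartile range of 3.37 ± 0.06 against 3.58 ± 0.02 (SD, n = 5 each). In the hippocampus the spread was 3.61 ± 0.03 with injection vehicle and 3.48 ± 0.06 with chow vehicle. Members called in comparisons of these arrays or groups are given with and without them, or with the spread in the fit. The spread of LiCl and chow vehicle arrays of the cortex did not overlap (3.29 to 3.44 and 3.56 to 3.61). That of injection and chow vehicle arrays of the hippocampus overlapped little (3.55 to 3.64 and 3.43 to 3.56). A fit with the spread can hardly tell it apart from these groups, and its SEs are larger. A call lost in such a fit therefore does not tell the spread from the treatment.

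The upstream sequences of Mki67, Top2a, Cdk1 and Sox11 are shown because these were the 4 members called higher in the striatum than in the cortex. They were picked after their values were seen, so what the sequences share has no test. Each runs from 250 bases before to 50 bases after the gene's start in RefSeq, assembly GRCr8, read along the gene. Capitals mark TTTGAA, the cell cycle genes homology region (CHR) found in many mitotic promoters, its other form TTCGAA, and CCAAT, the box bound by NF-Y. Both strands were searched, so TTCAAA and ATTGG are also in capitals.
Mki67, chr1:199952544-199952843, minus strand: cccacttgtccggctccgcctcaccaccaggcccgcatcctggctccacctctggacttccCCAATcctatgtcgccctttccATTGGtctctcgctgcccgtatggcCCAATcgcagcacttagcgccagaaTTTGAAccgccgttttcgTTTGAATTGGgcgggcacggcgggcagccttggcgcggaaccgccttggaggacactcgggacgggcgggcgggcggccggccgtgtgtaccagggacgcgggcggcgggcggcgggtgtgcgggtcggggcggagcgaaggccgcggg
Top2a, chr10:84473044-84473343, minus strand: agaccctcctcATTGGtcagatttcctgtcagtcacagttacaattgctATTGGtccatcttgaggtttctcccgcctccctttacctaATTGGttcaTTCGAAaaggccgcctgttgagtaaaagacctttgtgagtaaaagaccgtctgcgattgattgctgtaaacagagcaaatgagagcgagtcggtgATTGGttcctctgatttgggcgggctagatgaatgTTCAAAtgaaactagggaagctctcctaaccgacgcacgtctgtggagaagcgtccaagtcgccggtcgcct
Cdk1, chr20:19265043-19265342, plus strand: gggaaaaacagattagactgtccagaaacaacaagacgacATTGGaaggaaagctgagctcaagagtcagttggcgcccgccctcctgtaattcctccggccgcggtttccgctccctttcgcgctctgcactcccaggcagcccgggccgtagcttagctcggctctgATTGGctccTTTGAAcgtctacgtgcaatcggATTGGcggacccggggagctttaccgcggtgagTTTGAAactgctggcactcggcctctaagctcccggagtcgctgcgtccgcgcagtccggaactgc
Sox11, chr6:49738745-49739044, minus strand: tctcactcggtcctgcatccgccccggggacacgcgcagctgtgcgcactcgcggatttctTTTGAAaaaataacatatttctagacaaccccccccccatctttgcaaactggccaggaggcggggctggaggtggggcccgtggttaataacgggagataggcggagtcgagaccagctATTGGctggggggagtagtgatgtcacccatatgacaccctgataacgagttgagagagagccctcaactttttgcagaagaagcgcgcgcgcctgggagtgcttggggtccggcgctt

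Mki67 held TTTGAA at -117 and -99 and 4 CCAAT boxes, the last of which overlaps the second TTTGAA by 1 base. Top2a held TTTGAA at -22 on the other strand, TTCGAA at -152 and 4 CCAAT boxes. Cdk1 held TTTGAA at -72 and -16 and 3 CCAAT boxes. Sox11 held 1 of each, at -189 and -69. Promoters were found for 7 of the 9 members, all but Ccnd1 and Ccnd2, and Ccnb1, Pcna and Dcx held CCAAT but not TTTGAA. Of all 33469 promoters of the same length, 18.3% held TTTGAA, 1.69% TTCGAA and 37.5% CCAAT. The E2F core form GCGGGAA stood in 4.21% of them and in 0 of the 7 members.

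The first question was whether either drug changed these genes in the hippocampus. No member was called after LiCl (0 of 14, against 0.235% of all probe sets) or after lamotrigine (0 of 14, against 0.00322%). At an unadjusted p under 0.05, limma found 3 of the 14 after LiCl, where 15.5% of all probe sets passed, and 0 of 14 after lamotrigine, where 9.87% passed. The largest difference with LiCl was a log2 difference of -0.25, and the largest bound of any 95% interval over the 14 was 0.47, a 1.38-fold change. With lamotrigine the largest difference was -0.27 and the largest bound 0.57.

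Mki67 in the hippocampus was 3.83, 3.64, 3.80, 3.97 and 4.10 in LiCl rats, against 3.97, 3.75, 3.93, 3.90 and 3.91 in chow vehicle rats. The LiCl arrays lay on both sides of the chow vehicle arrays, and the log2 difference was -0.03 ± 0.09. In lamotrigine rats it was 3.90, 3.92, 3.94, 4.34 and 3.73, against 3.85, 3.78, 3.94, 3.98 and 3.86 in injection vehicle rats, a difference of 0.09 ± 0.09. One lamotrigine array was the highest of all 20 and another the lowest of the injection arm, so the groups overlapped at both ends.

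The other mitotic genes of the hippocampus overlapped in the same way. Top2a differed by -0.08 ± 0.09 with LiCl and by 0.03 ± 0.09 with lamotrigine. Cdk1 was 4.97, 4.56, 4.98, 4.87 and 5.01 in LiCl rats, against 4.87, 5.11, 5.19, 5.05 and 5.11 in chow vehicle rats. All 5 LiCl arrays lay under the chow vehicle mean, but the difference of -0.19 ± 0.10 was not called (adjusted p = 0.346). Both Ccnb1 probe sets gave values of opposite sign with LiCl, -0.20 ± 0.12 for the brighter 1370346_at and 0.19 ± 0.09 for the dimmer 1370345_at (adjusted p = 0.431 and 0.3). Of the members of the earlier steps, Ccnd2 differed by 0.07 ± 0.12, Pcna by -0.05 ± 0.08 and the 3 Ccnd1 probe sets by -0.13 to -0.01.

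The probe sets of Dcx disagreed in the hippocampus. With the brighter probe set, 1374966_at, it was 7.19, 7.39, 7.28, 7.05 and 7.29 in LiCl rats, against 6.83, 6.79, 7.16, 7.12 and 7.15 in chow vehicle rats. All 5 LiCl arrays lay above the chow vehicle mean, and 1 of them lay inside the chow vehicle range. The difference was 0.23 ± 0.10, a 1.17-fold change, with an unadjusted p of 0.033 and an adjusted p of 0.279. With the dimmer probe set, 1387601_at, it was 3.31, 3.84, 3.42, 3.54 and 3.63 in LiCl rats, against 4.00, 3.68, 3.85, 3.63 and 3.85 in chow vehicle rats. Here 4 of 5 LiCl arrays lay under the chow vehicle mean, and the difference was -0.25 ± 0.10 (adjusted p = 0.249). With lamotrigine the probe sets differed by -0.05 ± 0.10 and 0.11 ± 0.10, again with opposite signs.

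Sox11 did not follow either Dcx probe set. It was 4.42, 4.29, 4.37, 4.53 and 4.81 in LiCl rats, against 4.67, 4.56, 4.52, 4.55 and 4.49 in chow vehicle rats, a difference of -0.08 ± 0.11. In lamotrigine rats it was 5.29, 5.51, 5.31, 5.24 and 5.11, against 5.44, 4.78, 4.97, 5.02 and 5.30 in injection vehicle rats, a difference of 0.19 ± 0.11 (adjusted p = 0.616). Neither drug was called, while both groups of the injection arm lay above both groups of the chow arm in their means.

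**Figure D1:**
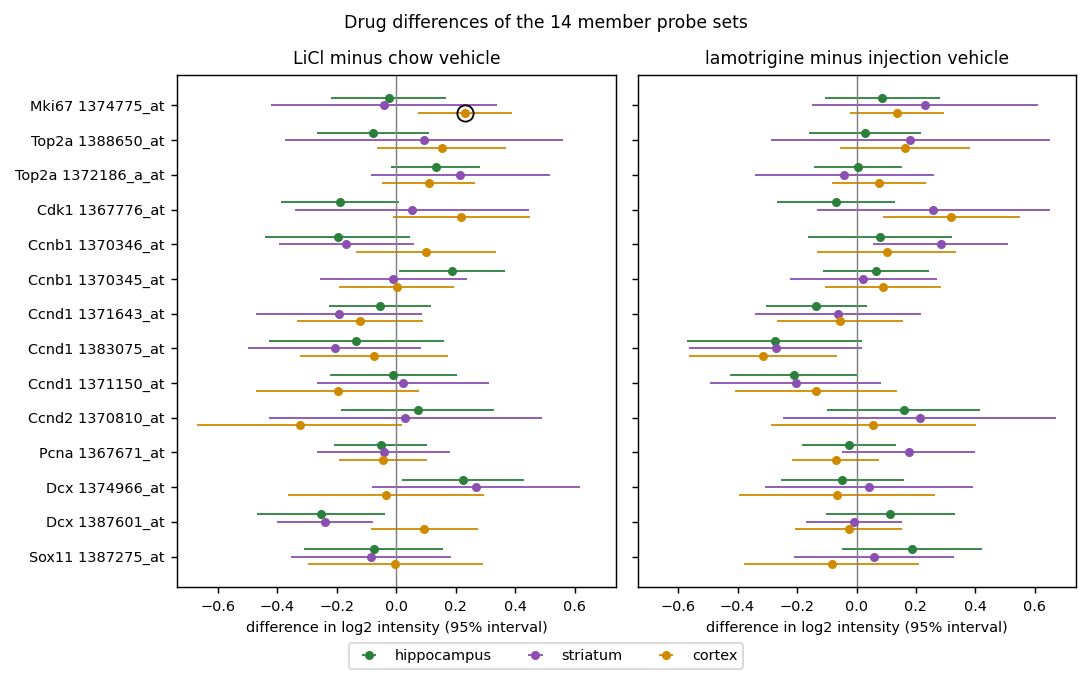
Log2 difference (x axis, drug minus its own vehicle, points, with 95% intervals of the limma fit) for each of the 14 member probe sets (y axis), with LiCl at left and lamotrigine at right and 1 colour a region. The ring marks the 1 called value, Mki67 in the cortex with LiCl at 0.23, and the intervals of the Dcx probe sets in the hippocampus lie on opposite sides of 0 with LiCl.

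In the cortex 1 of 14 member probe sets was called with LiCl, where 13.4% of all probe sets were. Mki67 was 3.93, 3.99, 3.81, 3.89 and 4.02 in LiCl rats, against 3.65, 3.77, 3.73, 3.73 and 3.61 in chow vehicle rats. Every LiCl array lay above every chow vehicle array, as was so for 11.8% of all probe sets in either direction. The difference was 0.23 ± 0.08, a 1.17-fold change (adjusted p = 0.0482). The call was lost when any 1 of the 10 arrays was left out (adjusted p from 0.0508 to 0.111), after quantile normalization (0.15, adjusted p = 0.291) and with the array spread in the fit (0.27, adjusted p = 0.516). Mki67 lay above 6.9% of all probe sets in the cortex. The next member in size, Ccnd2, was 8.91, 9.11, 8.89, 9.22 and 8.77 in LiCl rats, against 9.16, 9.62, 9.52, 8.84 and 9.36 in chow vehicle rats. Its difference of -0.32 ± 0.17 was not called (adjusted p = 0.191), and 2 chow vehicle arrays lay inside the range of the LiCl arrays. The sign of this difference changed under an alternative, and it was the largest member difference for which this happened.

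The other genes of mitosis in the cortex leaned the same way as Mki67 with LiCl. Of a list of 52 genes of mitosis without the members, 46 had a probe set, and 35 of these had a higher value in LiCl rats. The median log2 difference was 0.16, against -0.03 over all 14217 genes. Of the 46, 8 rose and 0 fell, which is close to the 14.5% of all genes called in either direction. They were led by Birc5, an inhibitor of cell death that sits on mitotic chromosomes (0.45 ± 0.09), Ncaph of the condensin complex (0.42 ± 0.11), the kinase Melk (0.39 ± 0.10), the spindle protein Tacc3 (0.36 ± 0.09) and Nuf2 of the kinetochore (0.30 ± 0.10) by size of difference. Replication genes were mixed. Of 27 measured, 3 rose with LiCl, namely Cdc45 of the replication helicase (0.41 ± 0.11), Tk1, a kinase that supplies thymidine nucleotides (0.37 ± 0.09), and Chaf1b, which loads histones on new DNA (0.30 ± 0.09), but the median was -0.05 and 12 of 27 were higher.

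These calls were lost or fewer in fits that took up the spread of the arrays, which did not overlap between LiCl and chow vehicle. With the array spread in the fit, 0 of 46 mitosis genes were called and the median was 0.05, and after quantile normalization 1 of 46 was called with a median of 0.08. With the dim probe sets left out, 8 mitosis genes remained in the fit and 2 of them rose. Choroid plexus genes averaged 6.13 ± 0.12 in LiCl cortex and 5.78 ± 0.11 in chow vehicle cortex, and meninges genes 6.78 ± 0.48 and 6.48 ± 0.26 (SD, n = 5 each). The part of spread or of other tissue in the result was not tested further. Of 32 measured genes listed for immature neurons, 3 fell with LiCl in the cortex and 0 rose, a smaller share than the 14.5% of all genes called. They were Gap43, a growth cone protein (-0.22 ± 0.06), Crmp1, a cytoskeleton protein of growing axons (-0.24 ± 0.07), and Bhlhe22, a transcription factor of cortical neurons (-0.27 ± 0.08). Markers of mature cortical neurons moved with them, with 4 of 9 called lower and 0 higher, a median of -0.24 and a mean level of 9.19 ± 0.05 in LiCl rats, against 9.45 ± 0.05 in chow vehicle rats (SD, n = 5 each). Their part in the result was not tested. Of the remaining lists, the cyclin-dependent kinase inhibitor Cdkn2c rose (0.29 ± 0.08, 1 of 8). Rbl2, a relative of the retinoblastoma protein, fell (-0.19 ± 0.06, 1 of 12 genes listed around the D cyclins). Hopx, a gene of neural stem cells and astrocytes, also fell (-0.30 ± 0.09, 1 of 17 stem cell genes). Of these 17 genes called in the cortex, 0 were called with the array spread in the fit and 4 after quantile normalization.

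**Figure D2:**
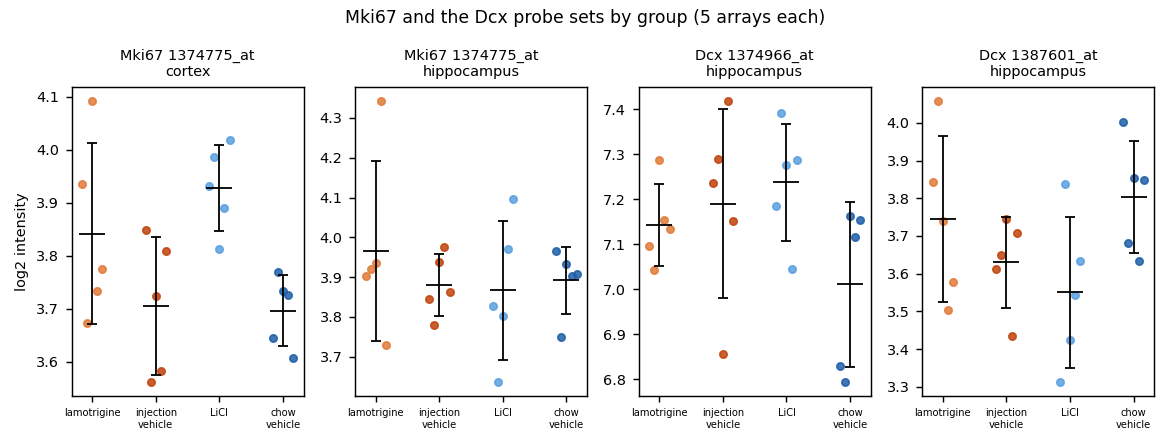
Log2 intensity (y axis, separate scale in each panel) of Mki67 in the cortex and the hippocampus and of both Dcx probe sets in the hippocampus, by group (x axis), with 1 point an array and the mean and SD of 5 arrays in black. In the cortex the 5 LiCl arrays of Mki67 lie above the 5 chow vehicle arrays, and in the hippocampus the 2 Dcx probe sets shift in opposite directions with LiCl.

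Lamotrigine called 0 of 14 members in the cortex, as it did 0% of all probe sets (2 of 14 and 5.8% at an unadjusted p under 0.05). Cdk1 stood nearest to a call. It was 5.27, 5.11, 5.30, 5.03 and 5.33 in lamotrigine rats, against 4.87, 4.91, 4.93, 4.93 and 4.81 in injection vehicle rats. The groups did not overlap, which held for 1 of 14 members and for 0.763% of all probe sets. The difference was 0.32 ± 0.11, a 1.25-fold change (unadjusted p = 0.009, adjusted p = 0.817). The second Ccnd1 probe set, 1383075_at, differed by -0.31 ± 0.12 (adjusted p = 0.817).

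In the striatum neither drug called a member or any other probe set (0 of 14 and 0% each). At an unadjusted p under 0.05, limma found 1 of 14 members with LiCl, where 12.3% of all probe sets passed, and 1 of 14 with lamotrigine, where 3.84% passed. With LiCl this was the dimmer Dcx probe set, which was 3.50, 3.67, 3.68, 3.80 and 3.61 in LiCl rats, against 3.91, 3.88, 3.77, 3.89 and 4.00 in chow vehicle rats. The groups overlapped by 1 array, and the difference was -0.24 ± 0.08 (adjusted p = 0.262), while the brighter probe set differed by 0.27 ± 0.17 (adjusted p = 0.517). With lamotrigine it was Ccnb1, which was 6.58, 6.27, 6.75, 6.28 and 6.46 in lamotrigine rats, against 6.05, 6.16, 6.21, 6.37 and 6.15 in injection vehicle rats, a difference of 0.28 ± 0.11 (adjusted p = 0.997).

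Lamotrigine replicate 4 of the striatum was the lowest array of its group in Mki67, Top2a, Cdk1, Pcna and Dcx. Mki67 was 4.84, 4.38, 5.08, 3.94 and 4.91 in lamotrigine striatum, against 4.23, 4.03, 4.44, 4.57 and 4.73 with injection vehicle. Ependymal genes averaged 6.43 on replicate 4 and 6.92 to 7.99 on the other 4 lamotrigine arrays. Replicates 3 and 5, the arrays of this group with the most signal of choroid plexus genes, were the highest in Mki67 and Top2a. With the 12 arrays high in choroid plexus genes left out, no drug comparison that lost an array to this gained a member call. These were both drugs in the hippocampus and the striatum, and lamotrigine in the cortex.

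Whether the LiCl effect differed between regions was tested over all 60 arrays, and 1 of 14 members was called, against 17.2% of all probe sets. This was the dimmer Dcx probe set (adjusted p = 0.0494), which had a difference of -0.25 in the hippocampus, -0.24 in the striatum and 0.09 in the cortex in the fits by region. The call was lost in 20 of the 30 fits with 1 array left out and after quantile normalization (adjusted p = 0.368), and the brighter Dcx probe set was not called. For lamotrigine 0 of 14 were called, as were 0% of all probe sets, and at an unadjusted p under 0.05 limma found 0 of 14, where 5.52% of all passed. The LiCl and lamotrigine effects differed in no member in the hippocampus, the cortex or the striatum (0 of 14 each, against 0%, 0.0129% and 0% of all probe sets). At an unadjusted p under 0.05 these counts were 1, 0 and 2 of 14, against 14.4%, 14.5% and 8.01%. Averaged over the 3 regions, no member was called with LiCl (0 of 14, against 0.786%) or with lamotrigine (0 of 14, against 0.119%), and at an unadjusted p under 0.05 limma found 2 of 14 with LiCl (13.9% of all) and 3 of 14 with lamotrigine (7.7%). The lowest p with lamotrigine was that of Ccnd1 1383075_at, with -0.29 ± 0.09 (unadjusted p = 0.00224, adjusted p = 0.303). Its difference was -0.27 in the hippocampus and in the striatum and -0.31 in the cortex, and all 5 lamotrigine arrays lay under the injection vehicle mean in each region. The brightest Ccnd1 probe set differed by -0.14, -0.06 and -0.06 in the hippocampus, the striatum and the cortex. In the same order, Ccnd1 1371150_at averaged 6.73, 6.56 and 6.77 in lamotrigine rats, against 6.94, 6.77 and 6.91 in injection vehicle rats. It was also among the 3 at an unadjusted p under 0.05 and was not called.

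Gap43 was the only gene of the immature neuron list called with LiCl in the hippocampus (-0.26 ± 0.05, adjusted p = 0.0429, 1 of 32 against 0.309% of all genes). The call was lost with the array spread in the fit (adjusted p = 0.633), after quantile normalization (0.0634) and with the choroid-rich arrays dropped (0.0594). Injection vehicle rats, which received no drug, were also called lower in Gap43 than the same chow vehicle arrays (-0.25 ± 0.05). The part of these shared chow vehicle arrays in the LiCl call was not tested. No gene of the mitosis (46), replication (27), D cyclin (12) or cyclin-dependent kinase inhibitor (8) lists was called with LiCl in the hippocampus. The smallest unadjusted p values among the mitosis and replication genes belonged to Kif20a, a kinesin of the dividing cell, with -0.26 ± 0.08 (adjusted p = 0.13), and Cdc45, with -0.42 ± 0.09 (adjusted p = 0.059). The sign of Cdc45 was opposite in the cortex. With lamotrigine no gene of these lists was called in any region. The mitosis list had 29, 33 and 38 of 46 genes with a higher value in the hippocampus, the cortex and the striatum. Its medians were 0.05, 0.10 and 0.09, against 0.01, 0.01 and 0.004 over all probe sets. The list averages of the arrays overlapped in each region. In the striatum they ran from 5.34 to 5.73 with lamotrigine and from 5.38 to 5.65 with injection vehicle.

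Sox11 had the largest difference of any member between the vehicles. In the striatum Sox11 was 6.08, 5.87, 5.88, 5.78 and 5.99 in injection vehicle rats, against 4.54, 4.98, 5.02, 5.01 and 4.91 in chow vehicle rats. The lowest injection vehicle array, at 5.78, lay above the highest chow vehicle array, at 5.02. The difference was 1.03 ± 0.13, a 2.04-fold change (adjusted p = 2.53e-05). In the cortex Sox11 was 5.35, 5.16, 5.34, 5.37 and 4.74 in injection vehicle rats, against 3.97, 4.57, 4.71, 4.19 and 4.45 in chow vehicle rats, a difference of 0.82 ± 0.14 (adjusted p = 0.000299). In the hippocampus the difference was 0.55 ± 0.11 (adjusted p = 0.0017), with the arrays given above. The groups did not overlap in any of the 3 regions.

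These calls stand in comparisons with many calls. Sox11 was 1 of 2 members called in the hippocampus, where 18.5% of all probe sets were called, the only one in the cortex, where 18.9% were, and the only one in the striatum, where 6.83% were. The groups did not overlap for 3, 1 and 2 of the 14 members in these regions, and for 12.6%, 13.4% and 9.51% of all probe sets. In the hippocampus the call of Sox11 was lost with the array spread in the fit (0.46 ± 0.19, adjusted p = 0.243), and in the cortex and the striatum it held (0.85 and 1.14). The other member called in the hippocampus was Ccnd1 1371150_at. It was 6.81, 6.56, 7.12, 7.13 and 7.07 in injection vehicle rats, against 6.47, 6.50, 6.35, 6.54 and 6.54 in chow vehicle rats, a difference of 0.46 ± 0.10 (adjusted p = 0.00328). The other 2 Ccnd1 probe sets differed by 0.06 and 0.29 and were not called, and 1371150_at was lost with the array spread in the fit (0.13, adjusted p = 0.791).

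The drug-treated arrays showed the same separation of Sox11, as was examined after the vehicle values were known. They did not enter the vehicle means, but all groups of a region shared the estimate of the spread. Lamotrigine arrays lay above LiCl arrays by 0.81 ± 0.11 in the hippocampus, 0.74 ± 0.14 in the cortex and 1.17 ± 0.13 in the striatum (adjusted p = 2.63e-05, 0.00072 and 6.08e-06). In this comparison 19.3%, 17.8% and 18.7% of all probe sets were called. The lamotrigine and LiCl arrays of Sox11 did not overlap in any region, as was so for 15.1%, 12.9% and 11% of all probe sets. In the striatum Sox11 was 6.26, 5.84, 6.04, 5.59 and 6.17 in lamotrigine rats, against 5.17, 4.57, 4.64, 4.84 and 4.82 in LiCl rats. Over both groups of each arm, Sox11 spanned 5.59 to 6.26 in the injection arm of the striatum and 4.54 to 5.17 in the chow arm, and the arms did not overlap in the cortex either (4.74 to 5.49 and 3.97 to 4.71). In the hippocampus they overlapped by a small margin (4.78 to 5.51 and 4.29 to 4.81).

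**Figure D3:**
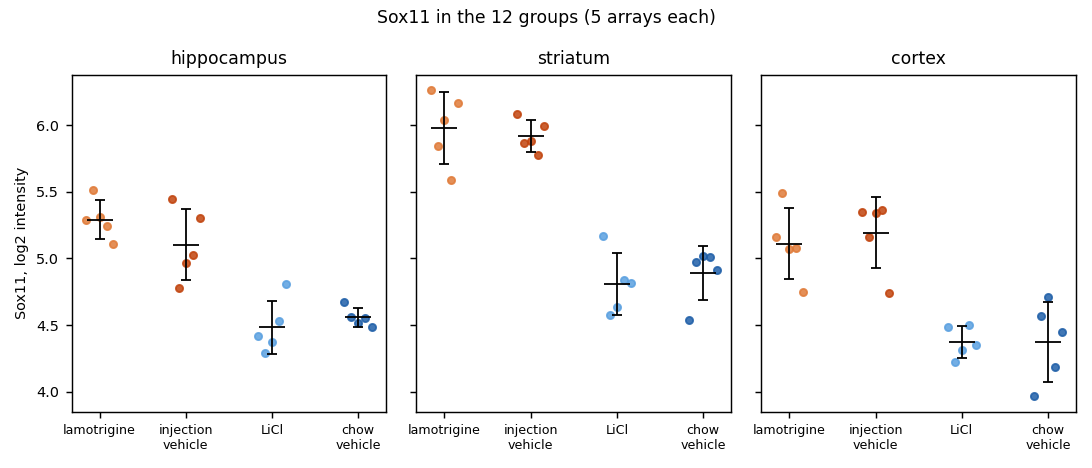
Log2 intensity of Sox11 (y axis) on each array of the 12 groups (x axis), 1 panel a region, with the mean and SD of 5 arrays in black. Lamotrigine and injection vehicle arrays lie from 5.59 up in the striatum, against at most 5.17 for LiCl and chow vehicle arrays, the 2 arms are also apart in the cortex, and in the hippocampus they overlap between 4.78 and 4.81.

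The other genes listed for immature neurons, which do not measure new neurons alone, did not share this pattern as a group. Of 32 measured, 1 rose and 3 fell in injection vehicle against chow vehicle rats in the hippocampus, 3 rose and 2 fell in the cortex and 0 were called in the striatum, with medians between -0.01 and 0.02 (16.5%, 18.5% and 5.72% of all genes were called). In the hippocampus the 3 that fell were Draxin, Elavl4 and Gap43, and in the cortex the 2 that fell were Elavl4 and Neurod6, while Neurod2 and Ncam1 rose beside Sox4. Sox4, the closest relative of Sox11 on the list, was 0.22 ± 0.05 higher in the hippocampus (adjusted p = 0.00555) and 0.44 ± 0.09 higher in the cortex (adjusted p = 0.00183). Dcx differed by 0.18 ± 0.10, 0.42 ± 0.16 and 0.31 ± 0.17 in the hippocampus, the cortex and the striatum with its brighter probe set, and none was called (adjusted p = 0.215, 0.0674 and 0.312). Without injection vehicle replicate 5 of the cortex, which was high in choroid plexus genes, the cortex difference of Dcx was 0.54 and was called (adjusted p = 0.0205).

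Between the vehicles, 16.5% of all genes were called in the hippocampus, 18.5% in the cortex and 5.72% in the striatum. The counts of the stem and precursor cell lists lay near these shares. Of 17 genes of neural stem cells, 3 were called in the hippocampus, 2 in the cortex and 1 in the striatum. Hes5, a target of Notch signalling, was lower in injection vehicle rats in all 3 regions (-0.44, -0.49 and -0.39). Id1 was also lower (-0.34) and Lpar1, a receptor for lysophosphatidic acid, higher (0.44) in the hippocampus, and Sox2, a transcription factor of stem cells and astrocytes, was lower in the cortex (-0.37). Of 13 genes of oligodendrocyte precursors, 2, 3 and 1 were called in the same order of regions. Cspg5, a proteoglycan, was lower in all 3 (-0.41, -0.40 and -0.31), Pdgfra, the receptor that marks these cells, was higher in the hippocampus (0.24), and in the cortex Cacng4 was higher (0.56) and Ptprz1 lower (-0.37).

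Of 27 replication genes, 3, 2 and 1 were called, smaller shares than those of all genes given above. Tyms, which makes thymidylate for DNA synthesis, was higher in all 3 regions (0.48, 0.44 and 0.59). In the hippocampus Rfc3, a subunit of the clamp loader of Pcna, was higher (0.33) and Mcm5 of the replication helicase lower (-0.28), and in the cortex the transcription factor E2f1 was lower (-0.28). Of the 46 mitosis genes 1 was called in each region, also a smaller share. They were Kif20a, lower in the hippocampus (-0.31), the spindle motor Kif11, lower in the cortex (-0.28), and Melk, higher in the striatum (0.36). Of 12 genes listed around the D cyclins 1 was called in each region. This was Gsk3b, a kinase that lithium inhibits, in the hippocampus (-0.52, adjusted p = 6.04e-06) and the cortex (-0.51, adjusted p = 0.000312), and E2f4 in the striatum (-0.26). Of 8 inhibitors of cyclin-dependent kinases, Cdkn2b was lower in the hippocampus (-0.35) and Cdkn3 lower in the cortex (-0.56).

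Many of these calls were lost with the array spread in the fit or with the choroid-rich arrays dropped. Of the 15 list genes called in the hippocampus, 3 were called with the array spread in the fit, namely Tyms (0.76), Gsk3b (-0.55) and Draxin (-0.72), and 7 with the choroid-rich arrays dropped. Sox4 lost its hippocampus call in the first (0.19, adjusted p = 0.33) and not in the second. Of the 15 called in the cortex the counts were 14 and 10, and of the 5 in the striatum 3 and 3. Hes5 lost its call with the array spread in the hippocampus (adjusted p = 0.0608) and the striatum (0.0973).

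The regions were compared in vehicle rats, with the mean of both vehicle groups, and a call also needed a fold of at least 1.5. Mki67, Top2a and Cdk1 were highest in the striatum. Mki67 in vehicle rats ran from 3.75 to 3.98 with a median of 3.91 in the hippocampus (n = 10 arrays a region). It ran from 4.03 to 4.78 with a median of 4.57 in the striatum, and from 3.56 to 3.85 with a median of 3.72 in the cortex. The striatal arrays did not overlap with those of either other region. Striatum exceeded cortex by 0.79 ± 0.09, a 1.73-fold change (adjusted p = 1.89e-11), and hippocampus lay below striatum by a difference of -0.61 ± 0.09 (adjusted p = 5e-08). Hippocampus and cortex overlapped, with a difference of 0.19 ± 0.09 that was not called (adjusted p = 0.0887).

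Cdk1 showed the same order. It ran from 4.87 to 5.42 with a median of 5.15 in the hippocampus and from 5.41 to 6.12 with a median of 5.80 in the striatum, a difference of -0.64 ± 0.10. In the cortex it ran from 4.67 to 5.36 with a median of 4.92, and striatum exceeded cortex by 0.88 ± 0.09 (adjusted p = 6.88e-12). Top2a ran from 4.31 to 4.67 in the hippocampus and from 4.71 to 5.56 in the striatum, a difference of -0.58, just under the fold needed. It ran from 4.08 to 4.55 in the cortex, below the striatum, which exceeded it by 0.75 ± 0.11 (adjusted p = 1.74e-08). The second Top2a probe set had the same signs, with 0.40 for striatum against cortex and -0.37 for hippocampus against striatum. Ccnb1 differed by 0.12 between striatum and cortex with its brighter probe set and by 0.28 with the other, under the fold needed.

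Counted over the members, 5 of 14 probe sets were called between striatum and cortex, against 12.3% of all, 3 of 14 between hippocampus and striatum, against 11.1%, and 0 of 14 between hippocampus and cortex, against 6.49%. In the last, limma gave an adjusted p under 0.05 without the fold to Dcx, Pcna and Cdk1, and an unadjusted p under 0.05 to 6 of 14, as to 48.6% of all probe sets. The groups of arrays did not overlap for 4 of 14 members between striatum and cortex (15.5% of all probe sets), for 2 of 14 between hippocampus and striatum (13.3%) and for 0 of 14 between hippocampus and cortex (7.48%). With the arrays high in choroid plexus genes left out, 5 of 14 were called between hippocampus and striatum, since Top2a and Sox11 passed the fold. In injection vehicle rats alone, 1 of 14 was called between hippocampus and cortex.

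Genes of mitosis outside the members leaned the same way over the regions. Between striatum and cortex 41 of 46 had a higher value in the striatum, with a median of 0.33 against 0.04 over all genes, and 6 rose and 1 fell, against 13.8% of all genes called. They were led by Aurkb, a kinase of the dividing chromosomes (1.46 ± 0.18), Cks2, a subunit of cyclin-dependent kinases (1.16 ± 0.12), Prc1, which bundles the central spindle (1.07 ± 0.12), Racgap1 of the dividing cell's furrow (1.00 ± 0.10) and Ube2c, an enzyme that marks cyclins for destruction (0.88 ± 0.10). Cdc25b, a phosphatase that activates Cdk1, was lower (-0.59 ± 0.07). With the arrays high in choroid plexus genes left out, 7 rose and 0 fell, with a median of 0.34. Ependymal genes moved with them, with 6 of 7 called higher in the striatum, a median of 0.85 and averages of 6.71 to 7.54 on the 10 striatal vehicle arrays against 5.72 to 6.13 on the 10 cortical ones. The part of the ventricular wall or of ciliated cells in these differences was not tested.

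Dcx ran the other way. With its brighter probe set it ran from 6.79 to 7.42 with a median of 7.15 in the hippocampus, from 6.08 to 6.80 with a median of 6.53 in the striatum and from 7.16 to 8.07 with a median of 7.53 in the cortex. Striatum and cortex did not overlap, and their difference was -1.12 ± 0.10, a 2.18-fold change (adjusted p = 3.18e-14), the largest between regions among the members. The hippocampus exceeded the striatum by 0.62 ± 0.10 (adjusted p = 1.17e-06) and differed from the cortex by -0.51 ± 0.10 (adjusted p = 6.06e-05, a 1.42-fold change). The dimmer Dcx probe set had medians of 3.69, 3.89 and 3.76 in the hippocampus, the striatum and the cortex and was not called in any pair. Of 32 other genes listed for immature neurons, 12 were lower and 4 higher in the striatum than in the cortex, where 13.8% of all genes were called. The lower ones were led by Bhlhe22 (-4.59), Neurod6 (-4.40) and Neurod1 (-2.93), transcription factors of excitatory neurons, and the RNA binding proteins Elavl4 (-2.40) and Elavl2 (-1.67). The higher ones were Dlx5 (2.54), a transcription factor of the GABA neuron lineage, Igfbpl1 (1.97), Dpysl5 (0.90) and Prox1 (0.60). Markers of mature cortical neurons moved the same way, with 8 of 9 called lower and a median of -1.85, and their part in the result was not tested. The list therefore cannot be read as a measure of new neurons alone.

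Sox11, the other gene of immature neurons among the members, was higher in the striatum than in the cortex by 0.62 ± 0.09 (adjusted p = 1.83e-08). The difference was 0.73 in injection vehicle rats alone and 0.52 in chow vehicle rats alone, where it fell short of the fold needed. It also fell short of that fold with the arrays high in choroid plexus genes left out (0.56) and after quantile normalization (0.57). Because the vehicles differed in Sox11, its 10 vehicle arrays of the hippocampus ran from 4.49 to 5.44, those of the striatum from 4.54 to 6.08 and those of the cortex from 3.97 to 5.37. Within the chow vehicle, hippocampus differed from striatum by -0.34, and within the injection vehicle by -0.82.

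**Figure D4:**
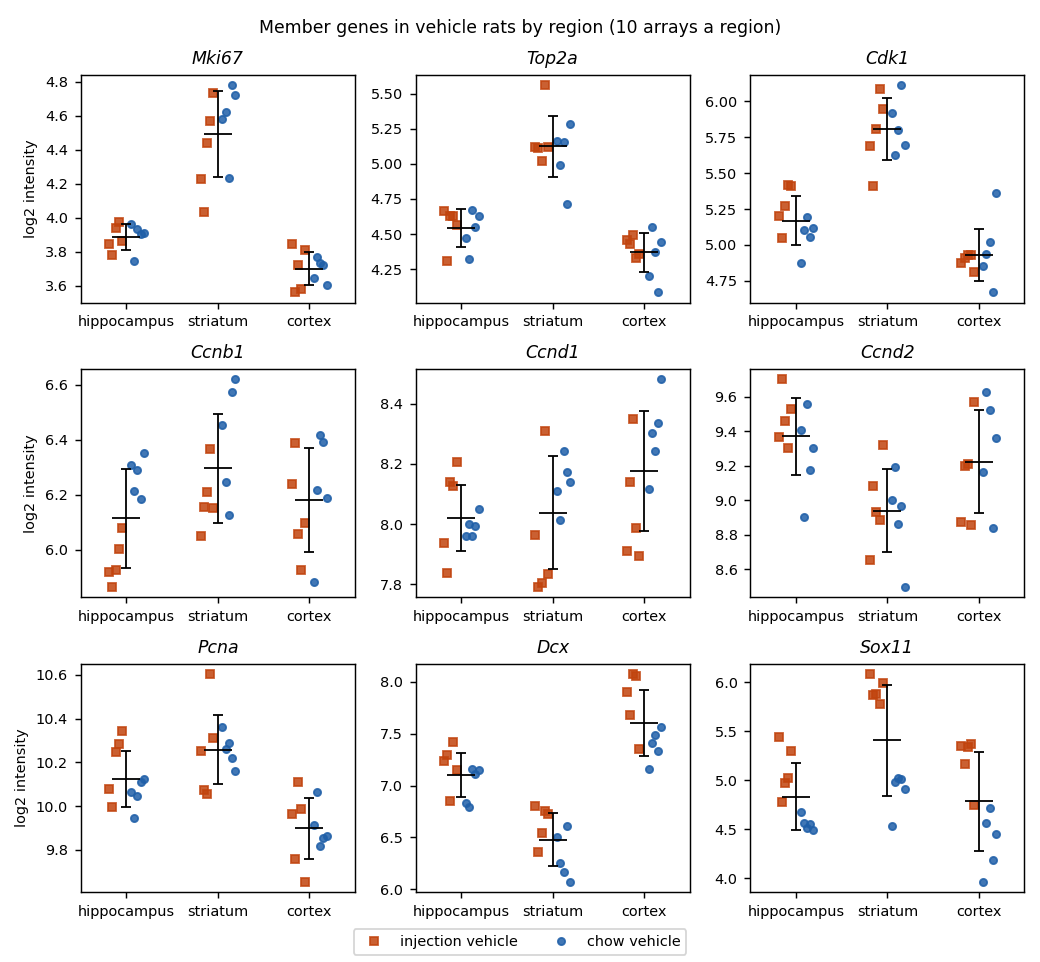
Log2 intensity (y axis, separate scale in each panel) of the brightest probe set of each member in vehicle rats by region (x axis), with 1 point an array, orange squares for injection vehicle, blue circles for chow vehicle and the mean and SD of 10 arrays in black. Mki67, Top2a and Cdk1 are highest in the striatum, Dcx is highest in the cortex and lowest in the striatum, and Sox11 splits by vehicle in every region.

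The D cyclins and Pcna varied little between regions. Ccnd2 ran from 8.90 to 9.70 with a median of 9.39 in the hippocampus, against 8.50 to 9.32 with a median of 8.95 in the striatum, a difference of 0.44 ± 0.12 (adjusted p = 0.00184, a 1.35-fold change). Its medians in hippocampus and cortex, 9.39 and 9.20, differed by less than the spread of either. Pcna was higher in the striatum than in the cortex by 0.36 ± 0.06 (adjusted p = 5.05e-07) and higher in the hippocampus than in the cortex by 0.23 ± 0.06 (adjusted p = 0.00141), both under the fold needed. For Ccnd1 the 3 probe sets had differences between -0.22 and 0.06 over the 3 pairs of regions.

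Whether the members moved together from rat to rat was asked on the 20 hippocampus arrays, with the group means removed. Of the 36 pairs of genes, 0 had an adjusted p under 0.05 in a permutation test within groups (100000 permutations), and 6 had an unadjusted p under 0.05. The highest correlation was that of Ccnd1 with Pcna (Pearson r = 0.71, permutation p = 0.00593, adjusted p = 0.165, Spearman rho = 0.65, permutation p = 0.0133), and r was 0.67 without the 2 arrays farthest from the median of Ccnd1. Ccnb1 with Pcna had r = 0.62 (permutation p = 0.0137, adjusted p = 0.165, rho = 0.68, permutation p = 0.00215, adjusted p = 0.0774), and r was 0.48 without the 2 farthest arrays. Mki67 with Cdk1 had r = 0.59 (permutation p = 0.0105, adjusted p = 0.165, rho = 0.50, permutation p = 0.0384), and r was 0.50 without the 2 farthest arrays. Mki67 with Top2a had r = 0.52 (permutation p = 0.0269, adjusted p = 0.218, rho = 0.52, permutation p = 0.0345), and r was 0.55 without the 2 farthest arrays. The other pairs of the 6 were Ccnb1 with Ccnd1 (r = 0.59, permutation p = 0.0302, adjusted p = 0.218, rho = 0.58, permutation p = 0.0175, 0.62 without the 2 farthest arrays) and Top2a with Pcna (r = 0.49, permutation p = 0.0379, adjusted p = 0.227, rho = 0.34, permutation p = 0.173, 0.30 without them).

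As a description over all 60 arrays with group means removed, nearest genes were sought only among those with a mean of at least 6. Dimmer genes could not be named. Among 10145 genes, the highest Pearson r to Mki67 was that of Prc1, the spindle bundling protein (r = 0.68), and Prc1 was also nearest to Cdk1 (0.65). Next to Mki67 came Cdca7 (0.64) and Anxa1 (0.57). For Dcx the nearest was Dlx1, a transcription factor of GABA neurons and their precursors (0.73), followed by Pcbp3 and Ptpro. Pcna had Psmb4, a proteasome subunit (0.79), Ccnd1 had Snapc2 (0.79) and Ccnd2 had Crk (0.71). The remaining members had nearest genes with r between 0.60 and 0.70, namely Tmem123 for Top2a, Cfap299 for Ccnb1 and Cdhr1 for Sox11. Arrays of different regions share animals, and the nearest genes were picked as the highest of many.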

How the data were processed

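RNA of 3 brain regions was measured on 60 arrays, 1 per sample, and groups were taken from the labels. Per the labels the authors used RMA in R 2.7.2, and the deposited values were linear intensity values, from 6.93 to 28582.4, where log2 values had been assumed, so log2 was taken with no pseudocount. Of 31099 probe sets 57 were controls, and 31042 were tested, 20826 of them with 1 symbol.

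Each region was fitted over its 20 arrays in 4 groups with lmFit and eBayes of limma 3.58.1 (R 4.3.3; trended prior, two-sided, Benjamini-Hochberg over all probe sets). Regions were compared, and effects averaged or compared over regions, in a fit over 60 arrays that treated the animal as random (duplicateCorrelation, 0.13). Nothing in the labels says that samples of a group were separate cultures or litters, so p-values measure the spread between these samples. The number of arrays limits the precision. On simulated data, 72% to 79% of probe sets changed by 0.5 on the log2 scale were recovered in the 3 LiCl comparisons. The simulated noise was independent between probe sets and left out the differences between whole arrays described above. Changes smaller than 0.5 were not simulated, whereas the largest LiCl difference of a member in the hippocampus was -0.25. The recovery of changes of that size is therefore not known.

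The members and gene lists were chosen with earlier results of these data known. Every member probe set was accounted for. For a list described in a comparison, the genes called were named, up to 5 in each direction by size, or the smallest p-values where none was called, and for each member the genes with the highest correlation. Genes named beyond this were chosen after their values were seen. A gene was represented in lists by its brightest probe set. Promoters came from RefSeq (GRCr8). Alternatives covered normalization, centring, dim probe sets, the trend, blocks, covariates and left-out arrays. Leaving out arrays high in choroid plexus genes, using 1 vehicle and using drug-treated arrays were added after seeing the data.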

Additional observations from a re-analysis of the deposited data

Results flagged for a closer look

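Of 168 sets of 5 arrays (14 probe sets in 12 groups), 7 held an array that stood apart from the other 4 by Dixon's criterion, where chance gives about 1 in 20. Top2a 1388650_at was 4.31 on injection vehicle replicate 2 of the hippocampus, against 4.56 to 4.66 on the others. The same probe set was 5.56 on injection vehicle replicate 4 of the striatum, against 5.02 to 5.12. LiCl replicate 3 of the striatum was the highest of its group on all 3 probe sets of Ccnd1, with 8.54 on 1371643_at, 8.33 on 1383075_at and 6.998 on 1371150_at, against at most 7.89, 7.87 and 6.49 on the others. Dcx 1374966_at was 5.92 on lamotrigine replicate 4 of the striatum, against 6.76 to 7.02. Sox11 was 4.54 on chow vehicle replicate 1 of the striatum, against 4.91 to 5.02.

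The LiCl effect on Dcx 1387601_at differed between regions in a test of the difference itself (limma, adjusted p = 0.0494), where 17.2% of all probe sets were called. The other Dcx probe set had an adjusted p of 0.46 in the same test.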

How the results depend on the processing

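No value of a called member changed its sign under an alternative. Leaving out dim probe sets took the probe sets of Mki67, Cdk1, Sox11 and Top2a and the dimmer one of Dcx out of the fit. Where a count below fell in that setting, these were removed, and their calls were not tested again. Of 6013 member values under an alternative 288 differed in sign from the reported value, and 456 counts of called members were within 1.5 times the reported count and 60 were not. The 1 member called with LiCl in the cortex, Mki67, became 0 after quantile normalization, after median centring, with dim probe sets left out, without the eBayes trend, with the array spread or the 3 prime to 5 prime ratio as a covariate, and in the fit over 60 arrays. The 1 member with an LiCl effect that differed between regions, Dcx, became 0 after quantile normalization, with dim probe sets left out, without the trend, without the animal block, with hippocampus animals of the chow arm numbered apart, and with the 12 choroid-rich arrays dropped. Injection vehicle against chow vehicle gave 2 members in the hippocampus, 1 with dim probe sets left out and 0 with the array spread. In the cortex it gave 1, which became 2 after centring, with the compared arrays alone, with either covariate and with those 12 dropped, and 0 with dim probe sets left out. In the striatum it gave 1, and 0 with dim probe sets left out. Hippocampus against striatum gave 3, 1 with dim probe sets left out and 5 with those 12 dropped. Striatum against cortex gave 5, and 1 with dim probe sets left out, since 7 of 14 were dim. Hippocampus against cortex gave 0, and 1 in injection vehicle rats alone. Other causes were not tested.

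With 1 array left out in turn, the count ran from 0 to 1 with LiCl in the cortex and for the LiCl effect over regions, from 2 to 3 and from 1 to 2 for the vehicles in the hippocampus and the cortex, from 2 to 5 for hippocampus against striatum and from 4 to 5 for striatum against cortex. It stayed at 1 for the vehicles in the striatum and at 0 in the other comparisons.

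The replicate numbers of the titles did not pair the samples, since 6 of 45 same-numbered pairs correlated over 0.1 and in 0 of 9 comparisons every pair did. With the replicate number as a block, LiCl in the cortex gave 0 members (adjusted p of Mki67 = 0.0567) and the LiCl effect over regions gave 0, and the block changed no other count.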
